A study of Mus musculus with 6 samples.

Results

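The 71 genes described here encode the heat shock proteins of the Hsp70, Hsp90, Hsp110, chaperonin and small heat shock families, together with the DNAJ co-chaperones, as they were measured in mouse hearts. They were taken by name and biotype from the deposited expression table: every protein-coding gene whose symbol starts with Hspa, Hspb, Hspd1, Hspe1, Hsph1, Hsp90, Dnaja, Dnajb or Dnajc and, where the symbol needs one, a number. These are 71 of the 30914 genes in the table, and 8 further symbols of the same pattern are processed pseudogenes and were not counted as members. By the known site of their proteins, 15 members were assigned to the endoplasmic reticulum (ER) and 10 to the mitochondria. The other 46, which include proteins of the vesicle surface and the cilium, form the group called cytosol and nucleus.

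Hearts were taken for RNA sequencing from 3 mice of the Ang II group and 3 mice of the Ang II + Tec group. All were male wild-type C57BL/6J mice, 8 weeks old at the start, that received angiotensin II (Ang II), a peptide that drives cardiac hypertrophy, at 1 μg/kg/min for 4 weeks. The Ang II + Tec group also received tectochrysin (Tec), a plant flavonoid, at 5 mg/kg during the last 2 weeks. Both groups thus carry the Ang II treatment, and no heart without Ang II was analysed here, so each value below compares Tec on top of Ang II with Ang II alone.

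Molecular chaperones hold unfolded proteins and help them to fold. Hsp70 binds short hydrophobic stretches in an ATP-driven cycle that a DNAJ protein starts and a nucleotide exchange factor such as Hsp110 ends, while Hsp90 finishes the folding of selected clients. In the mitochondrial matrix the Hsp60 barrel works with its lid Hsp10, and in the ER BiP and Grp94 take these roles. The cytosolic set is induced through heat shock factor 1 and the ER set through the unfolded protein response. Small heat shock proteins, which need no ATP, are abundant in the heart, where they bind to filaments of the sarcomere and cytoskeleton.

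The regulatory letters of these pathways can be read in the promoters that RefSeq gives for 56 of the 71 members on GRCm38.p6 (250 bases before to 50 after each start site). The heat shock element was searched on both strands as GAANNTTCNNGAA and was found in 4 of these 56 members and in 0.662% of all 27025 genes with a promoter. The ER stress response element was searched as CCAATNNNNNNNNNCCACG and was found in 3 of the 56 and in 0.137% of all genes. They are shown because the first letters belong to the cytosolic and mitochondrial sets and the second to the ER set compared below. Each line runs 5′ to 3′ on the gene's strand, and capitals mark the matched letters, which in Hspe1 are 2 overlapping matches. A match is a description of these letters and does not show binding.
Hspe1 (chr1:55088053-55088082, plus strand): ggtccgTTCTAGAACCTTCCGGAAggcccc
Hsph1 (chr5:149636279-149636308, minus strand): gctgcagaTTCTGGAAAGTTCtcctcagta
Dnajb6 (chr5:29735844-29735873, plus strand): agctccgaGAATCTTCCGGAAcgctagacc
Hspa5 (chr2:34772020-34772049, plus strand): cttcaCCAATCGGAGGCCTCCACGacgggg
Hsp90b1 (chr10:86705632-86705661, minus strand): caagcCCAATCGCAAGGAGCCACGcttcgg
Hsp90b1 (chr10:86705527-86705556, minus strand): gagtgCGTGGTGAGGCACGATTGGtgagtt
Dnajc3 (chr14:118937822-118937851, plus strand): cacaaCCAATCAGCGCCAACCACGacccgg

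The matches in Hspe1, Dnajb6, Hspa5, Hsp90b1 and Dnajc3 lie before a start site, and that of Hsph1 lies after it, in the transcribed part. Hspe1 and Hspd1 stand head to head on chromosome 1, with RefSeq start sites at 55088148 on the plus strand for Hspe1 and at 55088243 and 55087932 on the minus strand for Hspd1. The Hspe1 element ends 71 bases before the Hspe1 start and also lies in the promoter of the second Hspd1 start, so that the pair shares these letters. In the GENCODE M21 annotation the printed bases of Hspe1, Hsph1, Dnajb6 and Hspa5 lie within an annotated exon, and those of Hsp90b1 and Dnajc3 do not.

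The deposited values are FPKM, fragments scaled to the length of the transcript and to the mapped fragments of the library. FPKM keep no total of reads, so no counting interval can be given and the spread between the mice is the error throughout. Sums of FPKM ran from 516699 to 629989 per library, and 20998 to 22385 genes were above 0. Transcripts of the mitochondrial genome took 40.2% to 41.3% of the sum in Ang II replicates 1 and 2 and 48.9% to 52.5% in the other 4 libraries. Cardiomyocyte markers (6 genes) summed to between 7574 and 9374 FPKM in every library. The atrial transcripts Myl7, Sln and Myl4 together reached 636 and 797 FPKM in Ang II replicates 1 and 2 and 1544 FPKM in Ang II + Tec replicate 2, but only 0.29 to 2.62 FPKM in the other 3 libraries, so that the hearts differed in how much atrial RNA they gave. In a whole heart, fewer cells of a type and less RNA per cell cannot be told apart.

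Of the 71 members, 64 reached 0.5 FPKM in at least 3 libraries and were tested, and all 64 were at or above that level in all 6 libraries. The other 7 (Dnajb3, Dnajb7, Dnajb13, Dnajc5b, Dnajc6, Dnajc22 and Hspb9) never exceeded 0.33 FPKM and were not tested. Of these, Dnajc22 was listed at 0 in all 3 hearts with Ang II and at 0.03, 0.13 and 0.05 FPKM in those with Ang II + Tec. The tested members spanned a wide range, from a mean of 0.893 FPKM for Dnajb14 to 7 members above 100 FPKM.

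Small heat shock genes were the largest family by summed FPKM among the chaperone transcripts of these hearts. They supplied 39.6% to 45.7% of the summed FPKM of the members in each library. Hsp70 and Hsp110 genes supplied 19.3% to 23.5% and Hsp90 genes 10.7% to 13.9%. Relatives whose symbols fall outside the pattern were not counted in these shares. Among them, the small heat shock gene Cryab was at 528, 510 and 405 FPKM with Ang II and at 478, 501 and 380 FPKM with Ang II + Tec. By site, the cytosol and nucleus took 76.0% to 78.6%, the mitochondria 13.1% to 16.6% and the ER 7.26% to 10.2%. Within the Hsp90 pair, the constitutive Hsp90ab1 exceeded the inducible Hsp90aa1 by 4.28 to 10.3 times in each library, and the constitutive Hsp70 gene Hspa8 exceeded the sum of the inducible Hspa1a and Hspa1b by 31.96 to 149 times. These ratios and the family shares may be affected by shared sequence. Of the 75-base stretches, 42.8% in Hsp90aa1, 0.54% in Hsp90ab1, 33% in Hspa8 and 46.4% in Hspb1 transcripts also occur in transcripts of other genes.

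Comparing Ang II + Tec with Ang II asked whether any chaperone transcript differed with Tec. No member was called differentially expressed, that is, none combined an adjusted p under 0.05 by limma (Benjamini-Hochberg over the 13089 genes tested) with a log2 fold change of 1 or more in size, against 21 genes (0.16%) overall. The lowest adjusted p of a member was 0.218. At an unadjusted limma p under 0.05, 9 of the 64 members (14.1%) were lower with Tec, against 16.5% of all genes tested, and 1 (1.56%) was higher, against 2.09%. The groups did not overlap in 12 members that were lower (18.8%, against 18.9% of all genes) and in 2 that were higher (3.13%, against 2.9%). These shares were near those of the whole table. For any single gene, the two-sided p of an exact permutation test on 3 hearts a group could not go below 0.1.

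The mean difference of the members was small. The median log2 fold change (Ang II + Tec minus Ang II, on the scale of log2(FPKM + 1)) was -0.11 over the 64 members and -0.17 over all genes tested. It was -0.11 in the 40 cytosolic and nuclear members, -0.10 in the 14 ER members and -0.11 in the 10 mitochondrial members. Means were lower with Tec in 48 members and higher in 16, but this split turned to 21 lower and 43 higher when the libraries were scaled by the median of ratios, which moved the median of all genes from -0.17 to 0.01. The unadjusted counts turned with it, from 9 lower and 1 higher to 3 lower (4.69%, against 7.90% of all genes) and 9 higher (14.1%, against 7.56%). Directions of members with small differences therefore belong to the scale of the deposited FPKM. Of the 10 members with an unadjusted p under 0.05, Dnajc10 alone stayed there when any 1 library was left out. Dnajb1 missed it in 2 of these 6 fits, Hspe1, Hspa12b and Hspb2 in 3, Dnajc18 and Hspb11 in 4, and Dnajc15, Dnajc19 and Dnajc24 in 5, with no change of sign. Leaving out Ang II replicate 3 had the opposite effect, with 21 members then at an unadjusted p under 0.05 (20 lower, 1 higher), against 39.3% lower and 4.32% higher of all genes.

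**Figure D1:**
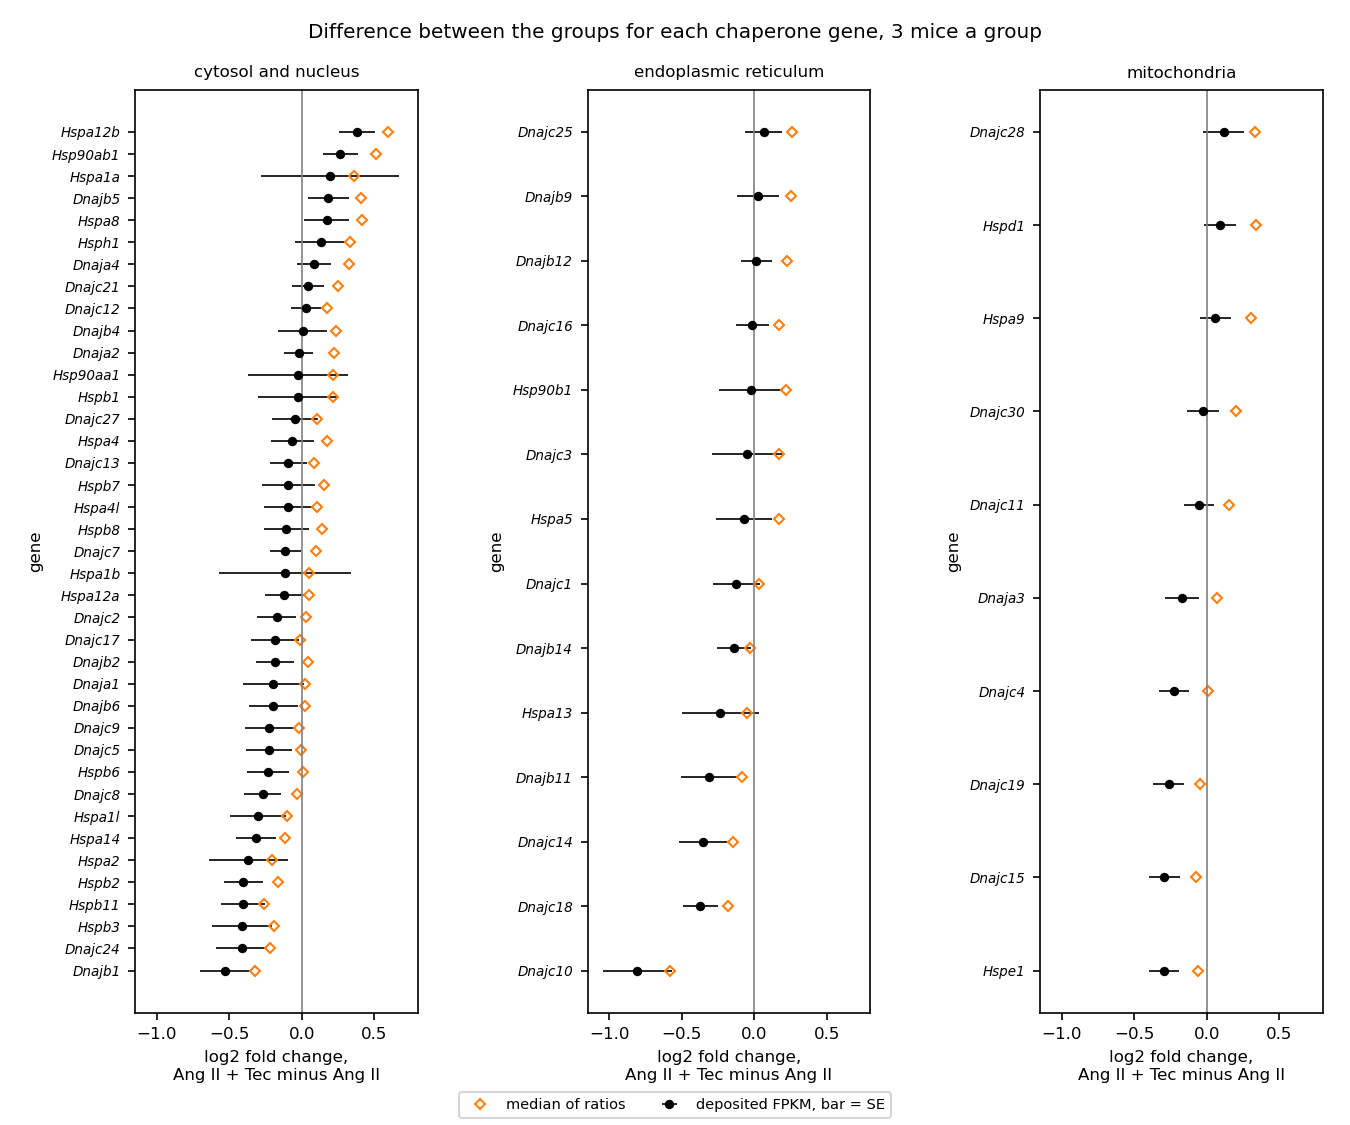
Log2 fold change of 63 of the 64 tested chaperone genes (horizontal axis, Ang II + Tec minus Ang II, on the log2(FPKM + 1) scale), by compartment and sorted by size; black points show the deposited FPKM with bars of 1 standard error from limma, and orange diamonds show the value after scaling by the median of ratios. Dnajc10 at -0.81 and Dnajb1 at -0.53 stayed on the lower side on both scales and Hspa12b at 0.38 on the higher side, while 42 of the 63 diamonds lie above 0.

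The largest difference was in Dnajc10 (chr2:80315466-80354043, ENSMUSG00000027006), which encodes ERdj5, a disulfide reductase of the ER lumen that works with BiP to clear misfolded proteins. Its FPKM was 17.96, 22.0 and 11.1 in hearts with Ang II and 8.17, 10.5 and 8.34 in hearts with Ang II + Tec. Every Ang II + Tec heart was below every Ang II heart, although Ang II replicate 3 and Ang II + Tec replicate 2 came close. The means were 17.0 ± 5.48 and 9.0 ± 1.29 FPKM (SD, n = 3 each), a ratio of 0.529. The log2 fold change was -0.81 with a standard error of 0.24 (limma, adjusted p = 0.218). Without Ang II replicate 3 it was -1.07 (limma, adjusted p = 0.0049), and Dnajc10 was then the only member called. In that fit 39.3% of all genes tested were lower at an unadjusted p under 0.05. The unadjusted p of Dnajc10 stayed under 0.05 in all 16 alternative fits, where the value ran from -1.07 to -0.58. Fibroblast markers (4 genes) summed to 431, 531 and 131 FPKM with Ang II and to 118, 189 and 133 FPKM with Ang II + Tec. Macrophage markers (4 genes) summed to 91.9, 114 and 61.9 FPKM with Ang II and to 38.7, 40.2 and 44.6 FPKM with Ang II + Tec, and 3 of the 4 did not overlap between the groups. Ang II replicates 1 and 2 were the highest libraries for both lists and for Dnajc10, and the part of the markers in the result was not tested.

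The BiP gene Hspa5 (Hsp70 of the ER) did not share this difference, with 66.7, 74.1 and 49.8 FPKM with Ang II and 53.8, 73.9 and 53.3 FPKM with Ang II + Tec. These groups overlapped, and the log2 fold change was -0.07 with a standard error of 0.19. The ratio of Dnajc10 to Hspa5 within a library does not depend on how the libraries are scaled. It was 0.269, 0.296 and 0.224 with Ang II and 0.152, 0.142 and 0.156 with Ang II + Tec, means of 0.263 ± 0.037 and 0.150 ± 0.007, with no overlap. This ratio and those below were chosen after the values were seen, and they show an unequal change of a pair of genes, not which of them changed.

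Hsp90b1 (Grp94, the Hsp90 of the ER) was at 53.6, 64.4 and 35.5 FPKM against 47.1, 56.3 and 44.1 FPKM, and Hspa5 and Hsp90b1 had the same order of high and low hearts within each group. Dnajc3, the p58 inhibitor of the kinase PERK, was at 9.75, 12.4 and 6.44 FPKM against 7.96, 11.4 and 7.70 FPKM. These 3 genes, whose promoters hold the ER stress response element shown above, had log2 fold changes between -0.07 and -0.02, within 1 standard error of 0. In each of them Ang II replicate 2 was the highest library and Ang II replicate 3 the lowest.

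Among the other ER co-chaperones, Dnajb11 (ERdj3, which hands secretory proteins to BiP) was at 14.8, 16.6 and 9.60 FPKM with Ang II and at 9.65, 11.5 and 10.5 FPKM with Ang II + Tec, a log2 fold change of -0.31 with a standard error of 0.20 (adjusted p = 0.384). Its groups overlapped only through Ang II replicate 3. Dnajb9 (ERdj4, a partner of BiP that is a target of the unfolded protein response) was at 14.1, 15.3 and 12.4 FPKM against 12.7, 16.8 and 13.3 FPKM, with a log2 fold change of 0.03. Dnajc18, a DNAJ protein of the ER membrane, was at 4.76, 4.44 and 3.78 FPKM with Ang II and at 3.01, 3.38 and 2.92 FPKM with Ang II + Tec. Its groups did not overlap, and the log2 fold change was -0.37 with a standard error of 0.12 (limma, adjusted p = 0.225). Of the 14 tested ER members, Dnajc10 and Dnajc18 alone reached an unadjusted p under 0.05, both lower (14.3%, against 16.5% of all genes tested). In the ER set, 9 members were highest in Ang II replicate 2 and 9 lowest in Ang II replicate 3. Over all 64 members these counts were 25 and 21, and those over all genes were not computed.

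**Figure D2:**
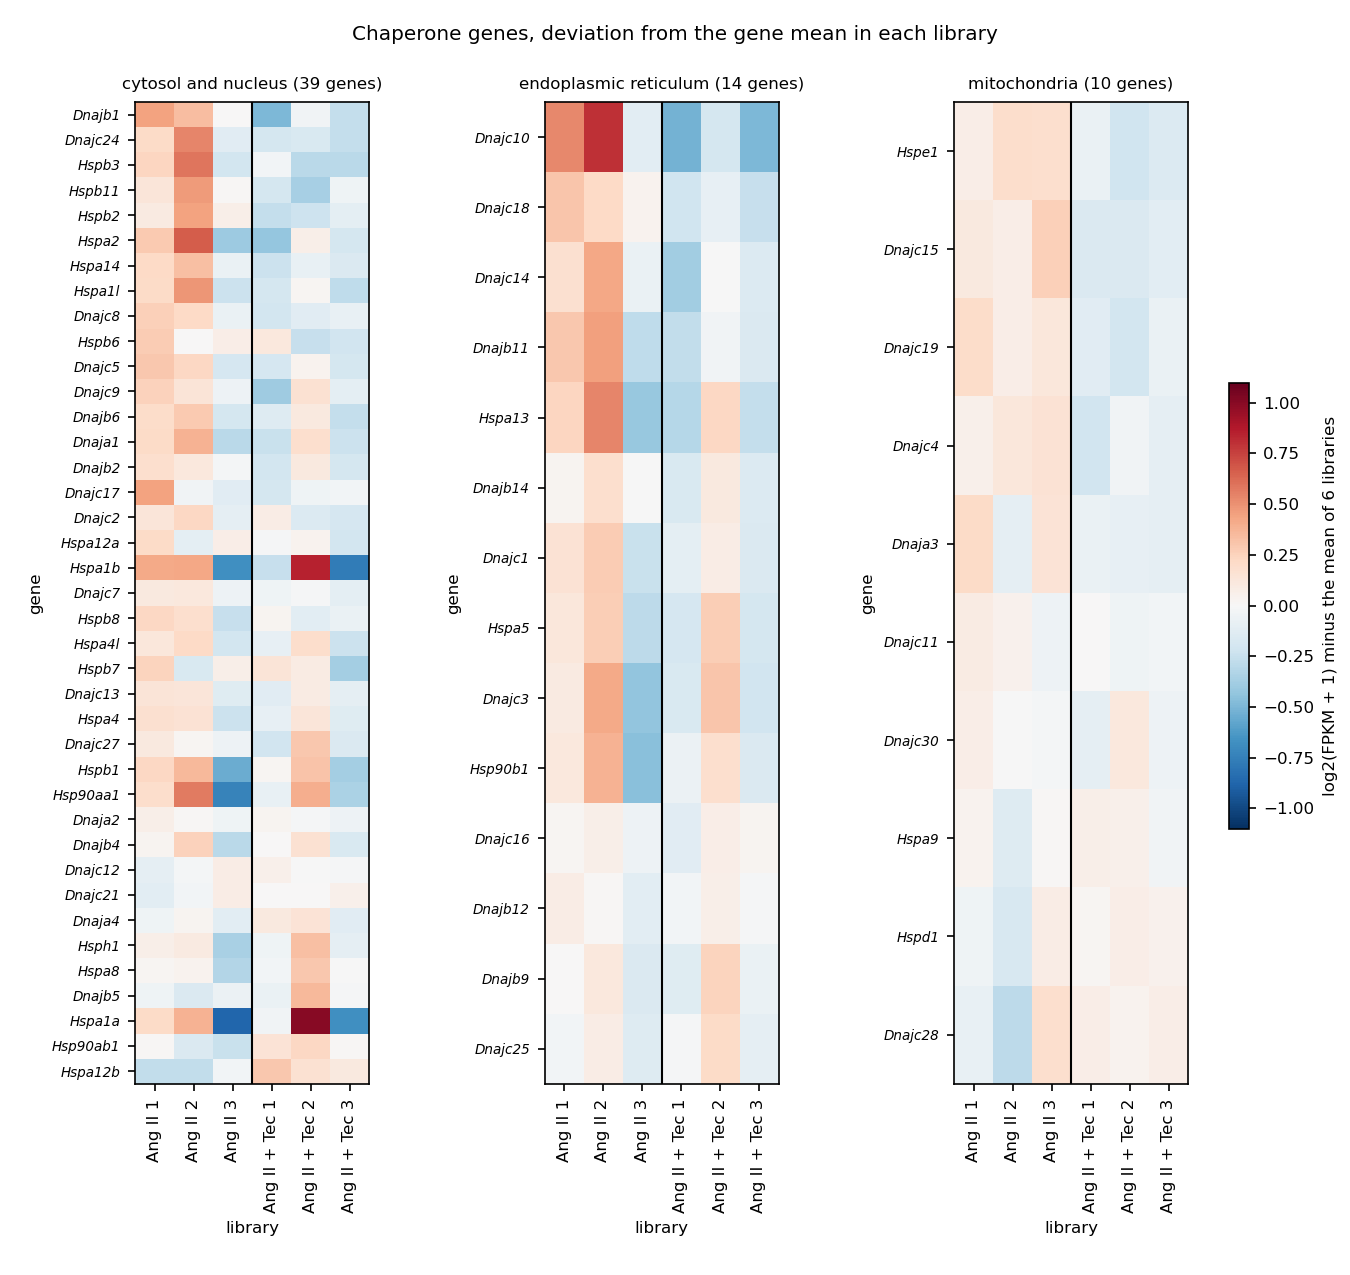
Deviation of log2(FPKM + 1) from the mean of the gene over the 6 libraries (colour) for 63 of the 64 tested chaperone genes (vertical axis, sorted by log2 fold change within each compartment) in each library (horizontal axis, Ang II to the left of the black line). Ang II replicate 2 held the highest value of 25 members and Ang II replicate 3 the lowest of 21, so the columns also differ within a group.

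Of the 10 mitochondrial members, 3 were lower with Tec at an unadjusted p under 0.05 (30%, against 16.5% of all genes) and 4 had groups that did not overlap (40%, against 18.9%), all 4 lower with Tec. The 3 were Hspe1, Dnajc15 and Dnajc19, and the fourth was Dnajc4, with 19.9, 20.97 and 21.5 FPKM against 16.4, 18.6 and 17.8 FPKM (adjusted p = 0.286), which was named after its values were seen. After scaling by the median of ratios, the log2 fold changes of these 4 lay between -0.07 and 0.004, with no unadjusted limma p under 0.05. The median of the 10 members, -0.11 on the deposited scale against -0.17 for all genes, was then 0.11.

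Hspe1 (chr1:55088132-55091307, ENSMUSG00000073676) encodes Hsp10, the lid of the Hsp60 barrel. It was at 41.2, 44.8 and 44.7 FPKM with Ang II and at 37.1, 33.5 and 35.1 FPKM with Ang II + Tec. All Ang II + Tec hearts were below all Ang II hearts, and the spread within a group was small, with means of 43.6 ± 2.08 and 35.2 ± 1.77 FPKM, a ratio of 0.809. The log2 fold change was -0.30 with a standard error of 0.10 (limma, adjusted p = 0.231), and it was -0.06 after scaling by the median of ratios.

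Hspd1, the Hsp60 gene on the other side of the shared promoter, was at 82.6, 75.5 and 90.3 FPKM with Ang II and at 86.7, 89.5 and 88.1 FPKM with Ang II + Tec. These groups overlapped, with a log2 fold change of 0.09 and a standard error of 0.11. The ratio of Hspe1 to Hspd1 was 0.499, 0.594 and 0.495 in the Ang II hearts and 0.428, 0.375 and 0.398 in the Ang II + Tec hearts. The ratio was thus lower in every Ang II + Tec heart, 0.400 ± 0.027 against 0.529 ± 0.056, and this holds under any scaling of whole libraries. Of the stretches of 75 bases, 14.6% of those in Hspe1 transcripts and 31.0% of those in Hspd1 also occur in transcripts of other genes, so reads may have been divided. Over all members, 16 share more than 10% of such stretches with other genes and 31 share none.

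Hspa9 (mortalin), the matrix Hsp70 that pulls proteins through the inner membrane, was at 106, 93.3 and 104 FPKM with Ang II and at 108, 107 and 100.4 FPKM with Ang II + Tec, with a log2 fold change of 0.06. Its partner Dnajc19 (Tim14), an inner membrane subunit of the import motor, was at 9.80, 8.85 and 9.24 FPKM against 7.61, 7.15 and 7.95 FPKM. The groups of Dnajc19 did not overlap, with a log2 fold change of -0.26 and a standard error of 0.10 (limma, adjusted p = 0.253), but the value was -0.05 after scaling by the median of ratios. The ratio of Dnajc19 to Hspa9 was 0.092 ± 0.003 in the Ang II group and 0.072 ± 0.006 in the Ang II + Tec group, again with no overlap.

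Dnajc15, a paralogue of Dnajc19 in the inner membrane, was at 9.01, 8.77 and 10.2 FPKM with Ang II and at 7.34, 7.31 and 7.57 FPKM with Ang II + Tec. The 3 Ang II + Tec hearts were within 0.26 FPKM of each other and below all Ang II hearts, with a log2 fold change of -0.29 and a standard error of 0.11 (limma, adjusted p = 0.237). After scaling by the median of ratios its value was -0.07. Dnaja3 (Tid1), a soluble DNAJ partner of Hspa9 in the matrix, was at 34.8, 28.0 and 33.4 FPKM against 28.5, 28.2 and 28.0 FPKM, and Ang II replicate 2 alone overlapped with the Ang II + Tec hearts. Its log2 fold change was -0.17 (adjusted p = 0.418) and turned to 0.07 after scaling by the median of ratios.

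**Figure D3:**
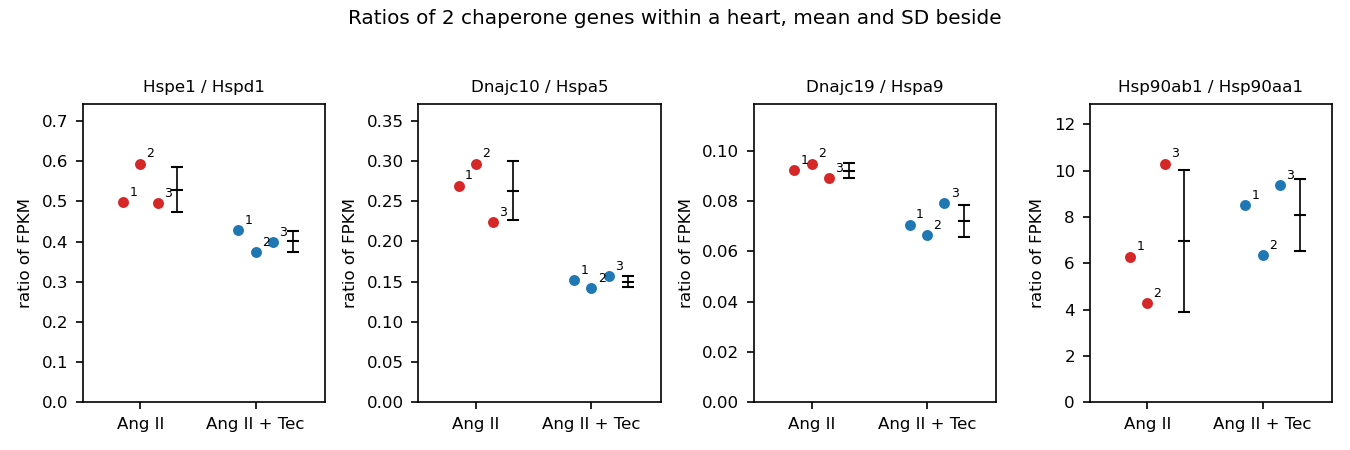
Ratio of the FPKM of a pair of chaperone genes within each library (vertical axis) in hearts with Ang II or Ang II + Tec, with each point labelled by its replicate number and a bar for the mean and SD of 3 hearts. The ratios of Hspe1 to Hspd1, Dnajc10 to Hspa5 and Dnajc19 to Hspa9 were lower in every Ang II + Tec heart, and the ratio of Hsp90ab1 to Hsp90aa1 overlapped between the groups.

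In the cytosol, the inducible heat shock genes varied more between hearts of a group than between the groups. Hspa1a, the main heat-induced Hsp70, was at 2.43, 2.86 and 0.62 FPKM with Ang II and at 1.89, 4.95 and 0.86 FPKM with Ang II + Tec. Its neighbour Hspa1b, which encodes a nearly identical protein, was at 3.03, 3.06 and 0.89 FPKM against 1.53, 4.43 and 0.77 FPKM. For both genes the hearts with high values were Ang II replicates 1 and 2 and Ang II + Tec replicate 2. They had log2 fold changes of 0.19 and -0.12 with standard errors of 0.47 and 0.46, and since 61.7% and 55.8% of their stretches of 75 bases occur in other transcripts, the division between the pair is uncertain. With the atrial transcripts as a covariate these values were 0.61, with an unadjusted p under 0.05, and 0.29. Their sum was 4.30 ± 2.42 FPKM with Ang II and 4.81 ± 4.06 FPKM with Ang II + Tec.

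Hsp90aa1, the inducible Hsp90, followed the same hearts, with 31.7, 41.4 and 16.2 FPKM against 25.9, 36.5 and 21.4 FPKM. Hspb1 (Hsp27), a small heat shock protein that binds actin, was at 126, 137 and 72.9 FPKM against 108, 133 and 82.3 FPKM. Hsph1 (Hsp110), the exchange factor of Hsp70, was at 4.95, 5.09 and 3.45 FPKM against 4.52, 6.18 and 4.32 FPKM. The log2 fold changes of these 3 genes were -0.02, -0.03 and 0.13, with all groups overlapping. Hspa1a, Hspa1b, Hsp90aa1, Hspb1 and Hspa2 had the largest spread within groups of all 64 members. Immediate early genes (6 genes, Fos and Jun among them), which rise within minutes of stress to a tissue, summed to 37.7, 42.4 and 16.6 FPKM with Ang II and to 20.5, 35.1 and 23.5 FPKM with Ang II + Tec, and their part in this spread was not tested. The 3 libraries with atrial transcripts were all above the other 3 in 30 of the 64 members (46.9%) and in 42.4% of all genes tested.

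Dnajb1, the Hsp40 that is a main DNAJ partner of inducible Hsp70, differed more between the groups than within them. It was at 6.81, 6.28 and 4.76 FPKM with Ang II and at 3.07, 4.60 and 3.79 FPKM with Ang II + Tec. The groups did not overlap, though Ang II replicate 3 was only 0.16 FPKM above Ang II + Tec replicate 2. Means were 5.95 ± 1.06 and 3.82 ± 0.77 FPKM, a ratio of 0.642, with a log2 fold change of -0.53 and a standard error of 0.17 (limma, adjusted p = 0.224). It was -0.33 after scaling by the median of ratios and -0.41 with the atrial transcripts as a covariate, and the unadjusted p stayed under 0.05 in all but 2 alternative fits, those that left out Ang II replicate 1 (-0.44) or Ang II + Tec replicate 1 (-0.41). Dnaja1, another DNAJ partner of cytosolic Hsp70, overlapped between the groups, with 8.81, 10.0 and 5.89 FPKM against 6.15, 8.63 and 6.20 FPKM.

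The constitutive cytosolic chaperones Hsp90ab1 and Hspa8 had higher means with Tec. Hsp90ab1 (chr17:45567775-45573271, ENSMUSG00000023944) was at 199, 177 and 167 FPKM with Ang II and at 220.4, 233 and 200.3 FPKM with Ang II + Tec. All Ang II + Tec hearts were above all Ang II hearts, by 0.83 FPKM between the closest, with a log2 fold change of 0.27 and a standard error of 0.12 (limma, adjusted p = 0.287). After scaling by the median of ratios it was 0.51, with an unadjusted p under 0.05. Hspa8 (Hsc70), the constitutive Hsp70, was at 248, 251 and 195 FPKM against 238, 299.8 and 243 FPKM, with a log2 fold change of 0.17 and a standard error of 0.15 on the deposited scale and 0.42 after the median of ratios, there with an unadjusted p under 0.05. Other alternatives gave values on both sides of those on the deposited scale. Hsp90ab1 was at 0.41 by quantile normalization and 0.32 with the atrial covariate, and Hspa8 was at 0.28 in both. With library weights Hsp90ab1 was at 0.10 and Hspa8 at -0.003, and without Ang II replicate 3 they were at 0.21 and 0.05.

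The largest difference toward higher values with Tec was in Hspa12b (chr2:131127280-131146321, ENSMUSG00000074793), a distant Hsp70 relative known from endothelial cells. It was at 6.10, 6.13 and 7.42 FPKM with Ang II and at 9.56, 8.63 and 8.26 FPKM with Ang II + Tec. Every Ang II + Tec heart was above every Ang II heart, with means of 8.82 ± 0.67 and 6.55 ± 0.75 FPKM, a ratio of 1.35, and a log2 fold change of 0.38 with a standard error of 0.12 (limma, adjusted p = 0.224). It was 0.60 after scaling by the median of ratios and 0.33 with the atrial transcripts as a covariate. Endothelial markers (4 genes) summed to 77.8, 80.2 and 77.6 FPKM with Ang II and to 72.1, 72.8 and 65.8 FPKM with Ang II + Tec. Kdr and Egfl7 of this list were lower in every Ang II + Tec heart, Pecam1 and Cdh5 overlapped, and the markers' part in the result was not tested.

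**Figure D4:**
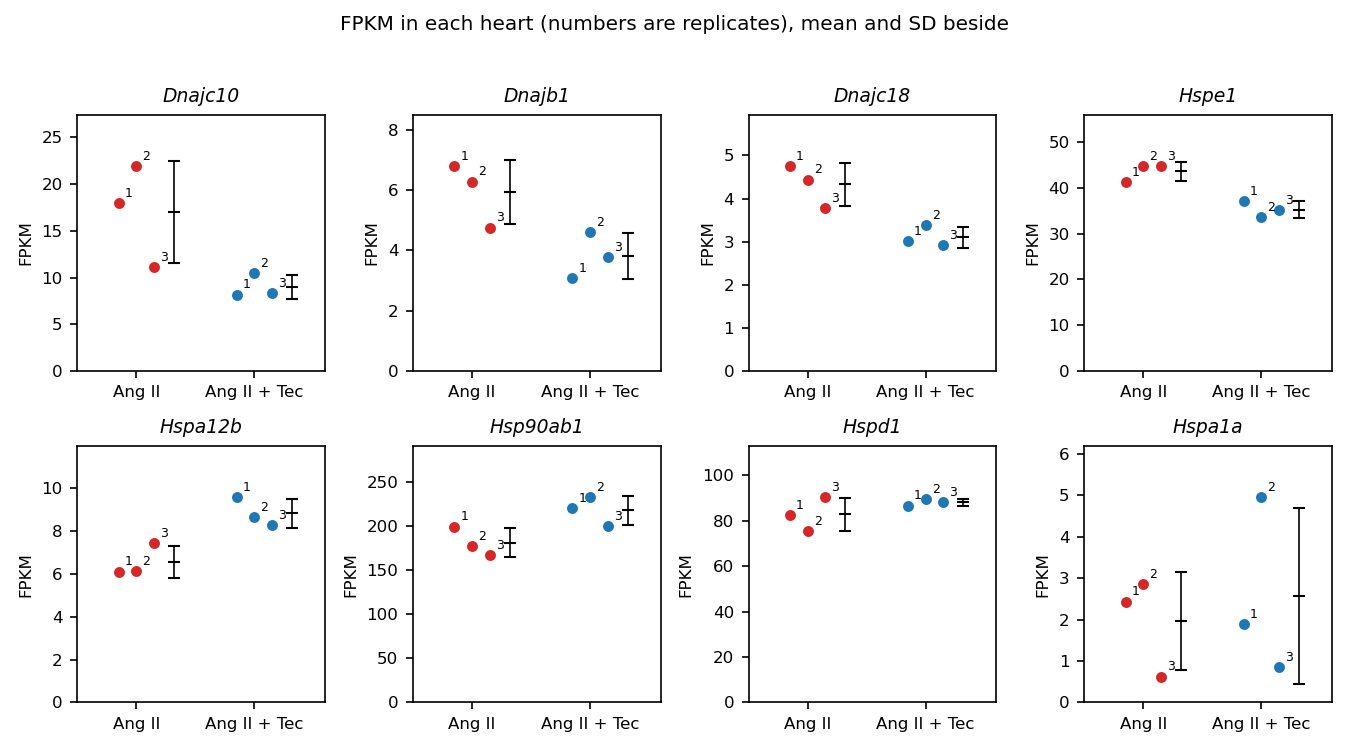
FPKM of 8 chaperone genes (vertical axis, from 0) in each heart with Ang II or Ang II + Tec, with points labelled by replicate number and a bar for the mean and SD of 3 hearts. Dnajc10, Dnajb1, Dnajc18 and Hspe1 were lower in every Ang II + Tec heart, Hspa12b and Hsp90ab1 were higher, and Hspd1 and Hspa1a overlapped between the groups.

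The 7 tested small heat shock members all had lower means with Tec on the deposited scale, with a median log2 fold change of -0.23, but Hspb1, Hspb6, Hspb7 and Hspb8 turned to between 0.01 and 0.22 after scaling by the median of ratios. Hspb7, a small heat shock protein of heart and skeletal muscle, was at 360.4, 269 and 317 FPKM against 336, 324 and 233 FPKM. Hspb6 (Hsp20) was at 324, 268 and 281 FPKM against 290.0, 223 and 231 FPKM. Both overlapped between the groups, as did Hspb8, the partner of Bag3 in selective autophagy, with 245, 238 and 174 FPKM against 213, 192 and 198 FPKM.

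Hspb2, a muscle protein that binds the myotonic dystrophy kinase, was at 56.9, 72.3 and 55.4 FPKM with Ang II and at 43.9, 45.0 and 49.2 FPKM with Ang II + Tec. All Ang II + Tec hearts were lower, with means of 46.0 ± 2.79 and 61.5 ± 9.35 FPKM and a log2 fold change of -0.40 with a standard error of 0.14 (limma, adjusted p = 0.229). Its neighbour Cryab, encoding αB-crystallin, shares 21.4% of the 75-base stretches of Hspb2, and the ratio of Hspb2 to Cryab overlapped between the groups, at 0.129 ± 0.018 against 0.104 ± 0.022. Hspb11 (Ift25), named for a small heat shock fold but known as a subunit of ciliary transport, was at 1.43, 2.06 and 1.24 FPKM against 0.94, 0.72 and 1.14 FPKM, with a log2 fold change of -0.41 (limma, adjusted p = 0.240). Dnajc24, which acts in the synthesis of diphthamide on elongation factor 2, was at 4.42, 5.80 and 3.28 FPKM against 3.08, 3.17 and 2.91 FPKM, with a log2 fold change of -0.42 (limma, adjusted p = 0.266). The groups of Hspb11 and Dnajc24 did not overlap, by 0.10 and 0.11 FPKM between the closest hearts. Without Ang II replicate 2, their highest library, the log2 fold changes of Hspb2, Hspb11 and Dnajc24 were -0.28, -0.28 and -0.25, with no unadjusted p under 0.05.

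The remaining 35 tested members had unadjusted p-values of at least 0.052, and 3 of them, Dnajc4 (above), Hspa14 and Dnajc8, had lower values in every Ang II + Tec heart. They belong to the 12 members (18.8%, against 18.9% of all genes tested) whose groups did not overlap on that side. After scaling by the median of ratios their log2 fold changes were 0.004, -0.12 and -0.04, with no unadjusted limma p under 0.05. Hspa14, a ribosome-associated Hsp70, was at 5.02, 5.51 and 3.93 FPKM against 3.39, 3.89 and 3.65 FPKM. Dnajc8, a co-chaperone linked to splicing, was at 25.0, 24.2 and 19.5 FPKM against 17.8, 18.8 and 19.5 FPKM, with Ang II replicate 3 and Ang II + Tec replicate 3 differing by 0.02 FPKM. Both were named after their values were seen.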

How the data were processed

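The authors extracted RNA from hearts, sequenced poly(A)-selected libraries in paired-end mode, trimmed reads with Cutadapt and deposited FPKM per gene and library. The submitters' processing notes name Bowtie 0.12.2, HISAT2 2.0, StringTie 1.3.0 and the build mm8. The gene coordinates of 57 of the 71 members equal those of GENCODE M21 on GRCm38, and coordinates are printed as deposited. The labels name a NovaSeq and the paper another instrument.

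Genes with at least 0.5 FPKM in at least 3 of 6 libraries were fitted as log2(FPKM + 1), without further scaling, with limma 3.58.1 in R 4.3.3 (lmFit, eBayes with trend) and Benjamini-Hochberg adjustment over all 13089 genes tested. The log2(FPKM + 1) scale understates the change of low genes. Standard errors come from the same fit. Nothing says that hearts were pooled, and each library was taken as 1 mouse. The fit was tested on simulated data. Tables were handled with pandas 2.3.3 in Python 3.11.15, and figures were drawn with matplotlib 3.10.9. Shared sequence was searched as 75-base stretches of GENCODE M21 transcripts.

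Genes named with all values are the major chaperones, the members with an unadjusted p under 0.05 and the 3 largest changes in each direction. Members, lists, ratios and this rule were chosen with earlier results of these data known. Alternatives changed the pseudocount (0.1), the filter, the scaling, the variance trend, the library weights and the replicate block, or left out each library. The atrial covariate (Myl7 of at least 100 FPKM) was added after seeing the data. The values of 1 tested member are not reported here, but the counts include it.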

Additional observations from a re-analysis of the deposited data

How the results depend on the processing

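The direction of the members as a group depended on which scaling was used, and library weights, which are not a scaling, also moved the median. The median log2 fold change of all members was 0.077 by the median of ratios, 0.064 by quantile normalization and -0.27 with library weights. For all genes tested it was 0.009, 0.020 and -0.26. For cytosolic and nuclear members it was 0.066, 0.054 and -0.31, and for mitochondrial members 0.11, 0.12 and -0.16. For ER members it was 0.10, 0.11 and -0.28. A further scaling, to a common sum outside the mitochondrial genome, left the direction as it was. The median was then -0.088 for all members, -0.088 for cytosolic and nuclear, -0.071 for ER and -0.082 for mitochondrial members, against -0.14 for all genes. Library weights, which gave Ang II replicate 1 a weight of 4.47 and Ang II replicate 3 one of 0.191, left 41 members with an unadjusted p under 0.05 (62.5% lower and 1.56% higher, against 59.7% and 5.36% of all genes) and called 1, Dnajc10.

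Leaving out 1 library moved the median of all members between -0.23 and -0.04, of cytosolic and nuclear members between -0.25 and -0.04, of ER members between -0.27 and -0.002 and of mitochondrial members between -0.13 and -0.065. It moved the members called between 0 and 1, those whose groups do not overlap between 14 and 35, and those with an unadjusted p under 0.05 between 2 and 21. The highest of these 3 counts came without Ang II replicate 3, where 14 members had an adjusted p under 0.05. The share of all genes at that threshold was not computed, so this count is not a result about the members. There 45.3% of the members did not overlap on the lower side and 31.3% had an unadjusted p on that side, against 53.7% and 39.3% of all genes. The lowest unadjusted count came without Ang II + Tec replicate 1, with 3.13% of the members lower against 7.68% of all genes. Among the named members, the 10 past an unadjusted p of 0.05 kept their sign in all 160 alternative values, of which 106 were still past it. Of the 19 others, 16 changed sign in at least 1 alternative (63 of 304 values) and 14 passed it in at least 1 (24 values). Hspa1a, Hspa8 and Hsph1 passed it with the atrial covariate.

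The sample titles number the hearts and state no pairing. Deviations of same-numbered libraries correlated at -0.039, 0.429 and 0.379, and those of differently numbered libraries at -0.435 to 0.226. Whether the numbers mark a pairing cannot be told from these values. With the replicate block, 9 members had an unadjusted p under 0.05 (8 lower and 1 higher) and 0 were called. Of the members 12.5% were then lower, against 22.9% of all genes. Values near 0.5 FPKM are limited by depth, which FPKM do not give, and 3 mice a group limit every test.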

Other observations

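Partners and relatives of the chaperones whose symbols fall outside the pattern of the members (63 genes found, 62 tested) were read from a list chosen by function. None had an adjusted p under 0.05 by limma. At an unadjusted p under 0.05, 3 (4.84%) were lower with Tec and 3 (4.84%) were higher, against 16.5% and 2.09% of all genes tested. Hsf1, the heat shock transcription factor, was at 3.02, 2.71 and 2.76 FPKM with Ang II and at 2.54, 3.17 and 2.60 FPKM with Ang II + Tec, with a log2 fold change of -0.03.

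Of the Hsp90 partners, Trap1, the mitochondrial Hsp90, was at 31.2, 23.8 and 29.5 FPKM against 34.3, 40.8 and 36.2 FPKM, higher in every Ang II + Tec heart, with a log2 fold change of 0.39 (limma, adjusted p = 0.233). Among the Hsp70 partners, Bag5 was at 8.85, 9.73 and 7.20 FPKM against 6.80, 6.61 and 6.76 FPKM, lower in every Ang II + Tec heart, with a log2 fold change of -0.30 (limma, adjusted p = 0.268).

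Means were lower with Tec in 10 of 13 ER partners (median log2 fold change -0.35) and in 6 of 9 genes of the unfolded protein response (median -0.11), against 80.0% of all genes tested, where the median was -0.17. Most had no unadjusted p under 0.05, among them the protein disulfide isomerase genes Pdia3 (-0.60), Pdia6 (-0.50), Pdia4 (-0.49) and P4hb (-0.43), which were named after their values were seen. Those that passed were 1 in each direction in each list. Sdf2l1, which binds BiP with Dnajb11, was at 7.13, 9.61 and 3.25 FPKM against 2.40, 3.58 and 2.70 FPKM, a log2 fold change of -0.89 (limma, adjusted p = 0.235), and Atf4, a transcription factor of the integrated stress response, had -0.48 (limma, adjusted p = 0.260). Herpud1, a membrane protein of ER-associated degradation, was at 65.7, 52.6 and 96.6 FPKM against 86.0, 130.1 and 118 FPKM, with a log2 fold change of 0.65 (limma, adjusted p = 0.243). Trib3, a pseudokinase that Atf4 is known to induce, was at 0.96, 0.83 and 0.91 FPKM against 1.14, 1.51 and 1.47 FPKM, with a log2 fold change of 0.32 (limma, adjusted p = 0.229). Sdf2l1, Atf4 and Herpud1 overlapped between the groups and Trib3 did not. Macrophage markers had the levels given beside Dnajc10, and their part in these values was not tested.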
